A study of Mus musculus with 6 samples.

Results

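The BCL2 family decides whether a cell keeps or loses the integrity of its mitochondrial outer membrane, and 10 of its genes are described here in mouse macrophages with and without Xbp1. Rows of the deposited gene table were taken where the gene symbol was Bcl2, Bcl2l1, Mcl1, Bax, Bak1, Bcl2l11, Bbc3, Pmaip1, Bid or Bad, which gave 10 genes of 54532, and all 10 passed the filter on low counts that left 14333 genes for testing. The survival proteins BCL2, BCL-XL (Bcl2l1) and MCL1 bind and restrain their relatives, while BAX and BAK (Bak1) open pores through which cytochrome c leaves and starts the caspase cascade. The BH3-only proteins BIM (Bcl2l11), PUMA (Bbc3), NOXA (Pmaip1), BID and BAD carry stress signals to the other members, by blocking the survival proteins or by activating BAX and BAK. In macrophages MCL1 is known as a main survival protein, and BIM, PUMA and NOXA are known to be controlled partly through their transcripts by stress and p53 signals.

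Messenger RNA was sequenced from bone marrow-derived macrophages (BMDMs), which are grown in culture from bone marrow precursors, of C57BL/6 mice aged 32 to 34 weeks. The XKO group had the genotype Xbp1ΔMf, a loss of Xbp1 in macrophages, and the XWT group carried Xbp1FL/FL, alleles flanked by recombination sites that are still intact. Cells of both groups were primed with lipopolysaccharide (LPS) and then cultured for 48 h in medium conditioned by wild-type primary hepatocytes, so that no library shows unprimed cells or plain medium. Each group had 3 libraries, and the comparison asks how loss of Xbp1, which encodes a factor that drives genes of the response to misfolded protein, alters the transcripts of such macrophages. The labels name neither the promoter that drove the recombinase nor the animals or cultures behind each library. The p-values therefore rest on how far these libraries differ within a group, and that spread may be technical.

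The libraries held 28354866 to 30891729 counts. Xbp1 averaged 77.6 ± 1.58 CPM in XKO and 149 ± 15.0 CPM in XWT (SD, n = 3 each; CPM, counts per library total after scaling, in the usual unit), with counts over the whole gene and not over a deleted part alone. The macrophage genes Adgre1, Cd68, Csf1r, Itgam, Mertk, Fcgr1, Cd14 and Lyz2 were all read, with a summed level of 25278 to 26948 CPM in XKO and 39551 to 47892 CPM in XWT, of which Lyz2 alone passed the test, with 13774 to 14915 CPM in XKO and 27319 to 34344 CPM in XWT. Of 10 tested stromal markers all 10 were lower in XKO, their list summing to 70.6 to 86.3 CPM in XKO and 758 to 850 CPM in XWT, and no stromal marker was at 0 in every library. Of 9 tested neutrophil markers 7 were higher in XKO, with sums of 98.6 to 106 CPM in XKO and 69.4 to 82.4 CPM in XWT and with Ly6g at 0 in all 6 libraries. All 7 hepatocyte markers were at 0 in every library. The lymphocyte list reached at most 0.419 CPM in XKO and 0.416 CPM in XWT, with Cd3d, Cd3e and Ncr1 at 0. The XWT libraries varied more among themselves than the XKO libraries, with a chi-square per gene of 20.8 to 23.7 between pairs of XWT libraries and 2.92 to 4.85 between pairs of XKO libraries.

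Among the 10 family members, Bcl2 rose and Bbc3 fell in XKO, and the other 8 did not pass the test. Across all tested genes 14.0% passed an adjusted p of 0.05 (edgeR quasi-likelihood test, Benjamini-Hochberg adjustment over 14333 genes), of which 6.00% of the tested genes were higher and 7.99% lower in XKO. Members were thus called in 1 of 10 cases upward and 1 of 10 downward, shares close to this background. The 860 genes higher and 1145 lower became 1158 and 749 when libraries were scaled by library size alone. The median log2 fold change of the 10 members was -0.04, beside 0.00 over all tested genes. In bulk RNA a smaller number of cells of a type and less RNA per cell cannot be told apart.

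**Figure D1:**
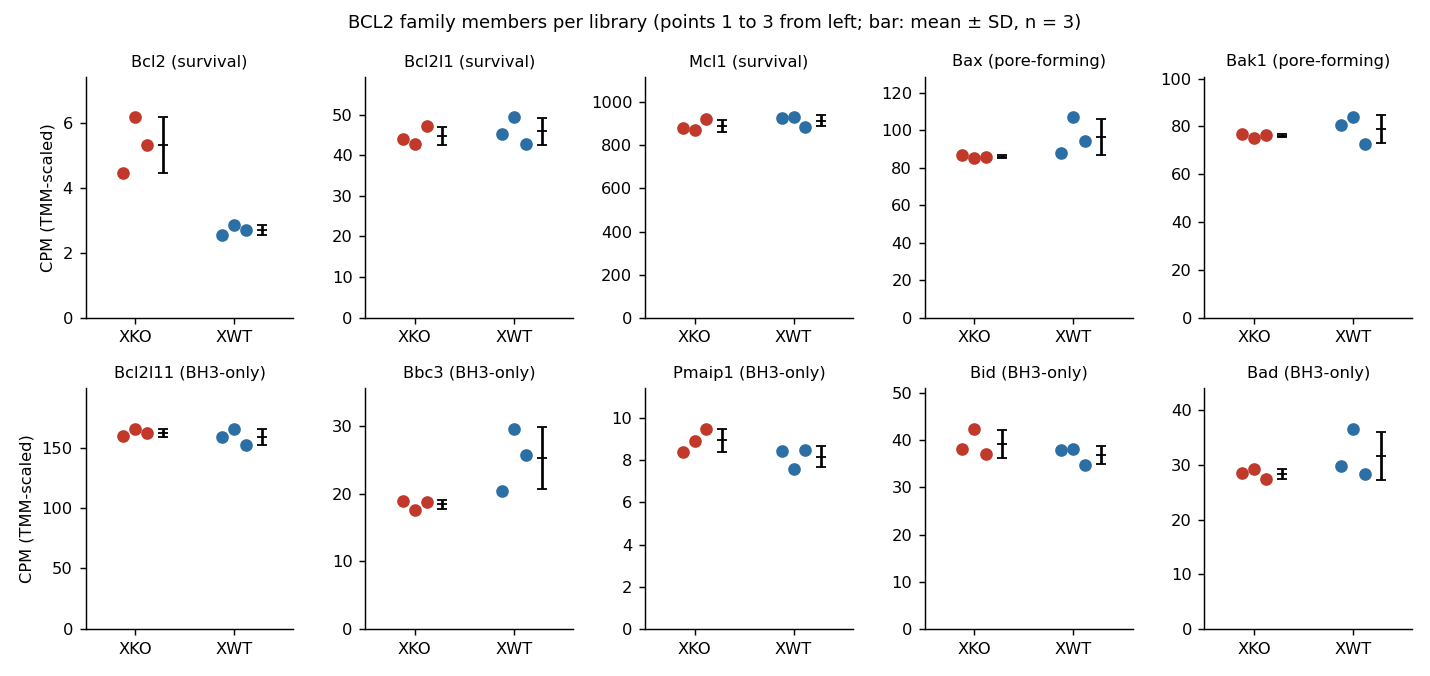
Level of each of the 10 members in CPM (y axis, starting at 0) in the 3 XKO and 3 XWT libraries, 1 point per library, with the mean and SD beside the points. The 3 XKO points of Bcl2 lie between 4.45 and 6.18 CPM, above all XWT points, and those of Bbc3 between 17.6 and 18.9 CPM, below all XWT points.

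Levels per transcript length, as given by the authors' FPKM columns, differed widely between the members. Mcl1 stood highest, at 259 ± 8.03 FPKM in XKO and 267 ± 8.71 FPKM in XWT (SD, n = 3 each), and took 62.3% to 63.8% of the summed FPKM of the 10 members in XKO libraries and 60.2% to 63.3% in XWT libraries. Bax followed at 54.3 ± 0.626 FPKM in XKO and 61.0 ± 6.35 FPKM in XWT, then Bak1 at 31.4 ± 0.312 FPKM in XKO and 32.8 ± 2.60 FPKM in XWT, and Bcl2l11 at 20.1 ± 0.390 FPKM in XKO and 19.8 ± 0.949 FPKM in XWT. These 4 levels did not overlap with each other in any library. Bad, Bid, Bbc3 and Bcl2l1 lay close together between 8.24 and 14.5 FPKM in XKO and between 9.27 and 18.3 FPKM in XWT. In XKO their ranges were in the order Bad, Bid, Bcl2l1 and Bbc3 without overlap, with the lowest Bid value (10.4 FPKM) close to the highest Bcl2l1 value (10.3 FPKM). In XWT Bad was highest, and the ranges of Bbc3, Bid and Bcl2l1 overlapped. Pmaip1 was lower, at 3.36 ± 0.204 FPKM in XKO and 3.08 ± 0.183 FPKM in XWT. Bcl2 was the lowest member in every library, at 0.577 ± 0.0939 FPKM in XKO and 0.295 ± 0.0172 FPKM in XWT.

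**Figure D2:**
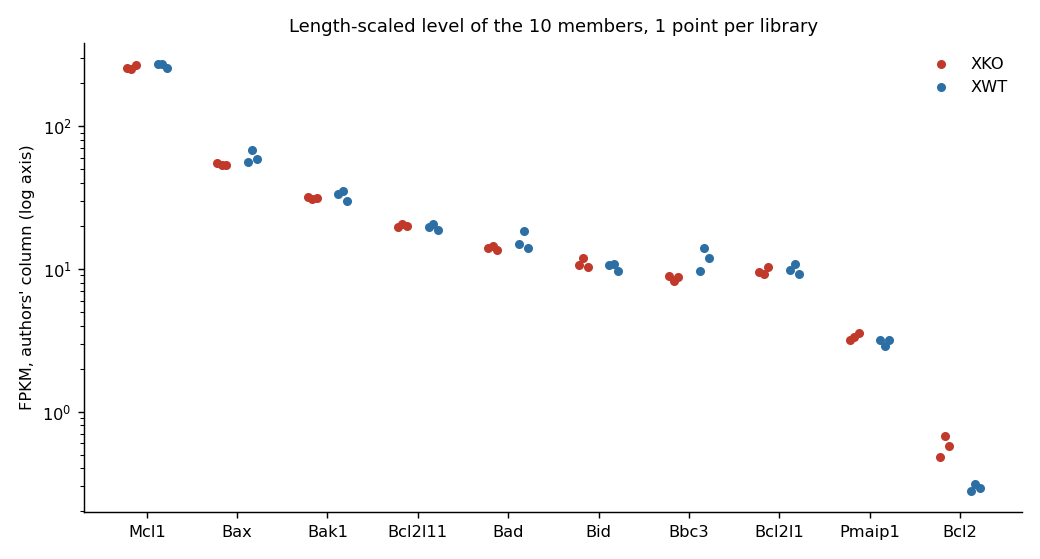
Length-scaled level of the members in FPKM (log y axis), 1 point per library, with XKO left of XWT for each gene and the genes ordered by their mean. Mcl1 stands above 250 FPKM in all 6 libraries and Bcl2 below 1 FPKM.

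Summed by role, the survival genes took 64.7% to 66.3% of the family's FPKM in XKO and 62.6% to 65.6% in XWT. The pore-forming genes took 20.3% to 21.2% in XKO and 20.8% to 22.7% in XWT, and the BH3-only genes 13.4% to 14.4% in XKO and 13.6% to 14.7% in XWT. Each of these ranges overlapped between the groups. The share of Bcl2 alone was 0.118%, 0.165% and 0.137% in XKO 1 to 3, against 0.0652%, 0.0691% and 0.0704% in XWT 1 to 3. Mcl1 had 530, 377 and 464 times the FPKM of Bcl2 in XKO 1 to 3, against 970, 872 and 883 times in XWT 1 to 3. With Bcl2 at 0.165% of the sum or less, its difference was smaller than the range of the Mcl1 share within either group. The sums by role therefore cannot show a change of Bcl2, and this says nothing of the spread of Bcl2 itself.

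Bcl2, the founding survival gene of the family, rose in XKO. It lies on chromosome 1 from 106538178 to 106714274 on the minus strand (ENSMUSG00000057329, protein-coding, mm10). The libraries held 138, 190 and 163 reads of it in XKO 1 to 3, or 4.45, 6.18 and 5.32 CPM, against 69, 85 and 84 reads in XWT 1 to 3, or 2.56, 2.86 and 2.69 CPM. All XKO libraries were above all XWT libraries, and the XKO libraries were spread more widely. The mean was 5.32 ± 0.866 CPM in XKO and 2.70 ± 0.152 CPM in XWT (SD, n = 3 each), a 1.96-fold higher level with a 95% interval from 1.52 to 2.53 (log2 fold change 0.97, standard error 0.171, adjusted p = 0.00207). The groups did not overlap for 36.2% of all tested genes, 17.5% upward and 18.6% downward. Without each library in turn the log2 fold change ranged from 0.85 without XKO 2 to 1.09 without XKO 1, with an adjusted p of 0.0218 or below. The authors' deposited table gives Bcl2 a log2 fold change of 0.97 with an adjusted p of 0.000247. The neutrophil markers, with the sums given above, were higher in the same libraries, the stromal markers were lower, and their part in the Bcl2 result was not tested. A long antisense gene, D630008O14Rik, overlaps 6.09% of the exon bases of Bcl2 but averaged 0.167 reads per library.

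The 300 bases around the annotated Bcl2 start are shown because Bcl2 is the member with the largest change. They run from 250 bases before to 50 bases after the start at chr1:106714241-106714540 on the minus strand (RefSeq, GRCm38.p6), printed 5′ to 3′ with capitals for TGACGT, the core of elements bound by CREB and ATF factors.
Bcl2: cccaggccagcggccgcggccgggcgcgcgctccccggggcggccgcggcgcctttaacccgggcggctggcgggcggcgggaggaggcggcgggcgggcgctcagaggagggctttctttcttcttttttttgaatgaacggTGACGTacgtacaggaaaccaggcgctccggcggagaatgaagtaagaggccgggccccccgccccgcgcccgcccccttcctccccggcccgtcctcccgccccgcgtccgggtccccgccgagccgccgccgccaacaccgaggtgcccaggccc
The window is 76.0% G and C. TGACGT occurs in 7.51% of 32851 such windows of 27025 genes when both strands are searched. Of the 15 windows of 9 members among these, 1 holds it, that of Bcl2, a share close to that of all windows. The 8-letter TGACGTGG, which contains TGACGT and is an element bound by XBP1, occurs in 0.676% of all windows and in 0 of the 15. A shorter sequence, CCACG, which is part of the ER stress response element and overlaps TGACGTGG on the other strand, occurs in 32.8% of all windows and in 7 of the 15, of Bad, Bax, Bbc3, Bcl2l1 and Bcl2l11. These matches describe letters in a window and not binding.

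Bcl2l1 encodes BCL-XL, a survival protein of the mitochondrial outer membrane (ENSMUSG00000007659, chromosome 2 from 152780668 to 152831728, minus strand). Its level was 44.1, 42.9 and 47.3 CPM in XKO 1 to 3, against 45.4, 49.4 and 42.9 CPM in XWT 1 to 3. The groups overlapped throughout, and the ratio of XKO to XWT was 0.976 with a 95% interval from 0.871 to 1.09 (adjusted p = 0.793). The count joins all transcripts of the gene, so the long form and the shorter pro-death form known as BCL-XS cannot be told apart.

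Mcl1 encodes the short-lived survival protein MCL1, which binds BAK and BIM (ENSMUSG00000038612, chromosome 3 from 95658788 to 95663176, plus strand). It had 880, 871 and 923 CPM in XKO 1 to 3, against 927, 931 and 887 CPM in XWT 1 to 3, again overlapping. It had 24975 to 28259 reads per library, the most of any member, and a ratio of 0.974 with a 95% interval from 0.886 to 1.07 (adjusted p = 0.720). A change of its transcript by more than these bounds was therefore not seen, whereas protein levels of MCL1 were not measured.

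The pore-forming genes did not pass the test. Bax (ENSMUSG00000003873, chromosome 7 from 45461697 to 45466898, minus strand) had 87.1, 85.4 and 85.6 CPM in XKO 1 to 3, against 87.8, 107 and 94.3 CPM in XWT 1 to 3. The XKO values were close together and all below the XWT values, with XWT 1 nearly level with them. The ratio was 0.892 with a 95% interval from 0.797 to 0.998, and the unadjusted p of 0.0472 became 0.157 after adjustment over all genes in edgeR. Bak1 (ENSMUSG00000057789, chromosome 17 from 27019810 to 27029009, minus strand) had 76.7, 75.3 and 76.2 CPM in XKO 1 to 3, against 80.6, 83.8 and 72.5 CPM in XWT 1 to 3. Its groups overlapped, at a ratio of 0.963 with an interval from 0.869 to 1.07 (adjusted p = 0.633). The opposite-strand gene Ggnbp1 shares 18.2% of the exon bases of Bak1, and since no source used here states whether counting used strand, reads there cannot be told apart.

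Bbc3, whose product PUMA binds every survival protein of the family and is a known p53 target, fell in XKO. The gene lies on chromosome 7 from 16308393 to 16318205 on the plus strand (ENSMUSG00000002083). It had 587, 541 and 575 reads in XKO 1 to 3, or 18.9, 17.6 and 18.8 CPM, against 551, 881 and 803 reads in XWT 1 to 3, or 20.4, 29.7 and 25.7 CPM. All XKO libraries were below all XWT libraries, with XWT 1 only slightly above XKO 1 and the XWT libraries far apart. The mean was 18.4 ± 0.727 CPM in XKO and 25.3 ± 4.63 CPM in XWT (SD, n = 3 each), a ratio of 0.728 with a 95% interval from 0.612 to 0.867 (log2 fold change -0.46, standard error 0.117, adjusted p = 0.0208). This call was less firm than that of Bcl2. It ended without XWT 2 (log2 fold change -0.33, adjusted p = 0.0835), without XKO 1 (-0.48, 0.0642), XKO 2 (-0.43, 0.100) or XKO 3 (-0.47, 0.0769), and with scaling by library size alone (-0.39, 0.0638), and the direction was kept in all of these. Stromal markers were lower in the same XKO libraries (10 of 10 tested, summing to 70.6 to 86.3 CPM in XKO and 758 to 850 CPM in XWT) and neutrophil markers were higher, and their part in the Bbc3 result was not tested. The authors' deposited table gives a log2 fold change of -0.46 and an adjusted p of 0.00587.

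Windows around the start sites of Bbc3 are shown because the gene fell and its promoter region is a known landing site of p53 and FOXO factors. RefSeq gives 3 starts, and the windows of the first, at chr7:16309333-16309632, and the second, at chr7:16310011-16310310, are printed 5′ to 3′ on the plus strand (GRCm38.p6). Capitals mark a match to the p53 response element in the first and TGTTTAC, the reverse complement of the forkhead element GTAAACA, in the second.
Bbc3 first start: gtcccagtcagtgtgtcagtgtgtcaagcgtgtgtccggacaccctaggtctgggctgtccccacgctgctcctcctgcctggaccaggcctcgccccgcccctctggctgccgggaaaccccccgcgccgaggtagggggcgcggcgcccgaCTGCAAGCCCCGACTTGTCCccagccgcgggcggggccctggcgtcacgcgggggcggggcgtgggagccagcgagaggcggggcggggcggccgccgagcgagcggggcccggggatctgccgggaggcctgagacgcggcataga
Bbc3 second start: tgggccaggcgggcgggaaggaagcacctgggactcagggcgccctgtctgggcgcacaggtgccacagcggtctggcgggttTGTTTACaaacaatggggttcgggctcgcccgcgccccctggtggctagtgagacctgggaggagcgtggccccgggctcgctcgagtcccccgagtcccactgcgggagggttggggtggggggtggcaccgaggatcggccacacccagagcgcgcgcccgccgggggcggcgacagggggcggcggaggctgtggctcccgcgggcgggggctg
The p53 element was searched as 2 adjacent copies of the p53 decamer on both strands, with both cores intact and at most 3 mismatches outside them, and 0.572% of all windows hold one. Among the 15 windows of family members it was found in the first Bbc3 window alone, where the marked stretch is at that limit of mismatches. GTAAACA occurs in 3.65% of all windows and, of the 15, in the second Bbc3 window and in 1 of Bcl2l11. CACGTG, the E-box, occurs in 7.15% of all windows and in 2 of the 15, the third Bbc3 window and that of Bax.

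Bcl2l11 encodes BIM, a BH3-only protein that binds all survival members and can activate BAX directly (ENSMUSG00000027381, chromosome 2 from 128126038 to 128162547, plus strand). It was the most abundant BH3-only transcript, with 159, 166 and 162 CPM in XKO 1 to 3, against 159, 166 and 152 CPM in XWT 1 to 3. The groups overlapped, and the ratio of 1.02 had a 95% interval from 0.930 to 1.12 (adjusted p = 0.780). Pmaip1 encodes NOXA, which binds MCL1 (ENSMUSG00000024521, chromosome 18 from 66458604 to 66465550, plus strand). Its level was 8.41, 8.91 and 9.50 CPM in XKO 1 to 3, against 8.46, 7.58 and 8.48 CPM in XWT 1 to 3. XKO 1 lay within the XWT range and the other XKO libraries above it, at a ratio of 1.09 with an interval from 0.921 to 1.30 (adjusted p = 0.477).

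Bid encodes the BH3-only protein that caspase-8 cleaves to link death receptors to mitochondria (ENSMUSG00000004446, chromosome 6 from 120891930 to 120916853, minus strand). It had 38.2, 42.5 and 37.0 CPM in XKO 1 to 3, against 38.0, 38.1 and 34.7 CPM in XWT 1 to 3, with overlapping groups and a ratio of 1.06 (interval 0.945 to 1.2, adjusted p = 0.479). Bad encodes a BH3-only protein that survival kinases inactivate by phosphorylation (ENSMUSG00000024959, chromosome 19 from 6941861 to 6951898, plus strand). It had 28.5, 29.2 and 27.3 CPM in XKO 1 to 3, against 29.8, 36.6 and 28.4 CPM in XWT 1 to 3. Its groups overlapped and XWT 2 stood apart above the rest, at a ratio of 0.896 (interval 0.777 to 1.03, adjusted p = 0.284). Opposite-strand genes share 17.7% of the exon bases of Bid (Bcl2l13) and 20.5% of those of Bad (Gpr137), so their counts may hold reads of these neighbours. Over the 8 members that did not pass, the 95% intervals of the ratio lay between 0.777 and 1.30.

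**Figure D3:**
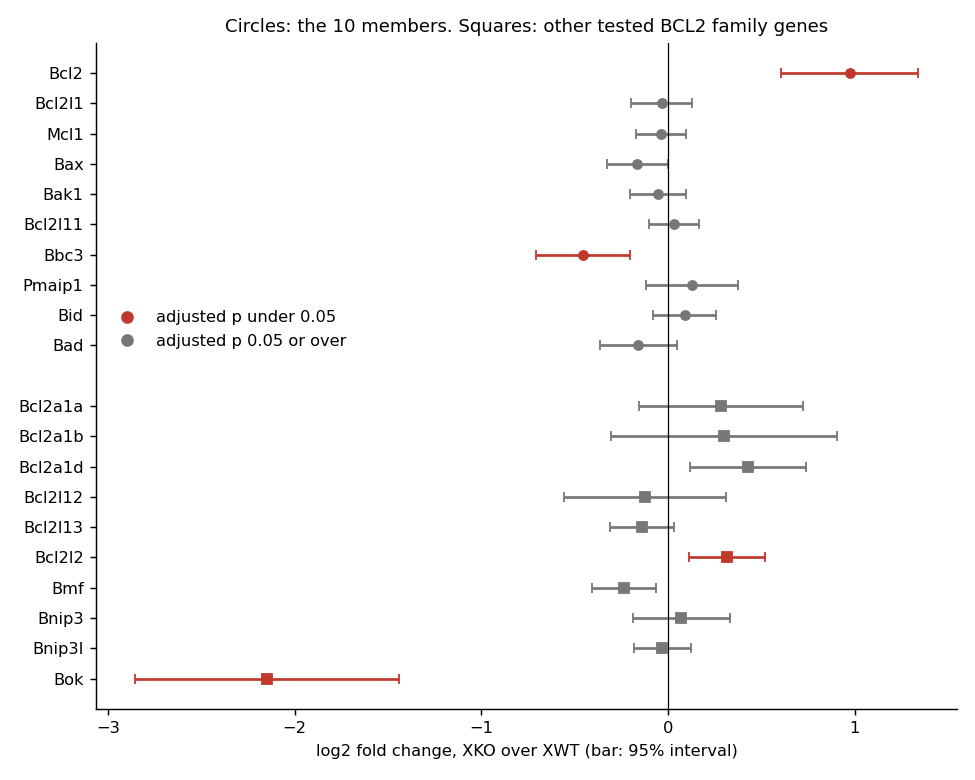
Log2 fold change of XKO over XWT (x axis) with its 95% interval for the 10 members (circles) and the other 10 tested family genes (squares), in red where the adjusted p was under 0.05. Bcl2 and Bcl2l2 lie to the right of 0 and Bbc3 and Bok to the left, and of the grey points the interval of Bcl2a1d, Bmf and, narrowly, Bax leaves out 0.

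The wider family was measured with 16 further genes, of which 10 were tested, 1 rose and 1 fell. Their median log2 fold change was 0.02, and of all tested genes 6.00% were called higher and 7.99% lower. Bcl2l2, which encodes the survival protein BCL-W, had 37.7, 36.1 and 36.2 CPM in XKO 1 to 3, against 24.8, 31.3 and 32.3 CPM in XWT 1 to 3. All XKO libraries were above the XWT libraries (log2 fold change 0.32, standard error 0.0948, adjusted p = 0.0420). Its call ended on leaving out any 1 library except XWT 3 (adjusted p = 0.0603 to 0.151) and with upper quartile scaling (0.0566). Bok, which encodes a BAX-like pore former, had 8, 11 and 12 reads in XKO 1 to 3, against 41, 39 and 52 reads in XWT 1 to 3. It fell by 2.15 on the log2 scale (standard error 0.328, adjusted p = 0.000699), and the stromal markers fell in the same libraries, whose part in the Bok result was not tested.

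The BCL2A1 genes, which encode the inducible survival protein A1 of myeloid cells, lay above XWT on average without passing the test. Bcl2a1d had 7.06, 9.37 and 8.0 CPM in XKO 1 to 3, against 6.94, 5.66 and 5.60 CPM in XWT 1 to 3 (log2 fold change 0.43, adjusted p = 0.0651). Bcl2a1a (0.28, adjusted p = 0.374) and Bcl2a1b (0.30, adjusted p = 0.498) are near-identical copies of it, among which reads can be split, so single values are uncertain. Bmf, a BH3-only gene, averaged 64.4 ± 1.23 CPM in XKO and 75.8 ± 8.53 CPM in XWT (log2 fold change -0.23, adjusted p = 0.0673). Bcl2l13 (-0.14), Bcl2l12 (-0.12), Bnip3 (0.07) and the mitophagy receptor gene Bnip3l (-0.03) had adjusted p-values from 0.255 to 0.813. Bik, Bcl2l14 and Bcl2l15 were below the filter, and Bcl2l10, Hrk and Bcl2a1c had no read in any library.

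Downstream of the mitochondria, few transcripts passed the test. Of 24 tested genes of the apoptosome, caspases, their inhibitors and the VDAC channels, 1 rose and 0 fell in edgeR. Of all tested genes 6.00% were called higher and 7.99% lower. The median log2 fold change was 0.04, and 15 of the 24 genes had values above 0, beside 7198 of all 14333 tested genes. At an unadjusted p under 0.05, 6 were higher and 2 lower, beside 14.5% of all tested genes higher and 16.3% lower at that threshold. No gene of the list was called lower by DESeq2 or limma-voom. Naip6, a NAIP gene known as a sensor of bacterial proteins, averaged 59.5 ± 1.09 CPM in XKO and 45.8 ± 7.99 CPM in XWT (log2 fold change 0.38, adjusted p = 0.0318), and its near-identical neighbours make this value uncertain. Its call ended without XKO 1 (adjusted p = 0.0916), XKO 2 (0.0975), XKO 3 (0.112) or XWT 1 (0.0612). Without passing in edgeR, Birc3 (log2 fold change 0.20, adjusted p = 0.0529), Xiap (0.23, 0.0890) and Naip5 (0.24, 0.0987) were toward the high side. So were Birc6 (0.19, 0.113) and Diablo (0.39, 0.135). Birc3 was called with DESeq2 (adjusted p = 0.0429) and limma-voom (0.0476), but not on leaving out any 1 XKO library (0.132 to 0.219). Toward the low side, Birc5, the survivin gene, had a log2 fold change of -0.22 (adjusted p = 0.113) and Dffa, the inhibitor of the caspase-activated nuclease, -0.18 (adjusted p = 0.137).

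In the death receptor arm, which meets the mitochondrial route at BID, 1 of 13 tested genes rose and 0 fell, with a median of -0.02. Of all tested genes 6.00% were called higher and 7.99% lower. At an unadjusted p under 0.05, 3 were higher and 1 lower in edgeR, beside the same 14.5% and 16.3% of all tested genes, and none was called lower by DESeq2 or limma-voom. Cflar, which encodes the caspase-8 inhibitor c-FLIP, averaged 211 ± 6.22 CPM in XKO and 182 ± 9.72 CPM in XWT (log2 fold change 0.22, adjusted p = 0.0431). It was not called on leaving out any 1 library except XWT 3 (adjusted p = 0.0584 to 0.197) or with upper quartile scaling (0.0512). The receptor genes Fas (0.32, adjusted p = 0.0803), Tnfrsf1a (-0.16, adjusted p = 0.150) and Tnfrsf10b (-0.41, adjusted p = 0.184) did not pass. Fas was called higher with library size alone (adjusted p = 0.0370), no filter (0.0365), the replicate block (0.0473) and without XWT 1 (0.0194). Tnfrsf1a was called lower without XWT 3 (0.00820). The caspase-8 gene Casp8 averaged 97.7 ± 0.238 CPM in XKO and 98.1 ± 5.14 CPM in XWT.

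Among 15 tested genes known to control BCL2 family transcripts or proteins, 4 rose and 1 fell, with a median of 0.08. Of all tested genes, 6.00% were called higher and 7.99% lower. Ddit3, the gene of CHOP, which in other cells is known to repress Bcl2 and to induce Bcl2l11, had 27.4, 29.2 and 29.0 CPM in XKO 1 to 3, against 17.6, 17.8 and 18.2 CPM in XWT 1 to 3. The groups were far apart (log2 fold change 0.67, standard error 0.0789, adjusted p = 7.01e-05). A second entry with the symbol Ddit3 had no read in any library, and Trp73 of the same list was below the filter. Bcl2 rose and the interval of Bcl2l11 spanned a ratio of 1, and a link of either gene to CHOP was not tested. Atf4, which encodes the factor upstream of CHOP, rose by a log2 fold change of 0.38 (adjusted p = 0.000955). Pim1, whose kinase phosphorylates BAD, rose by 0.49 (adjusted p = 0.00213), and Hif1a by 0.42 (adjusted p = 0.00885). Foxo3, which encodes a forkhead factor known to activate Bbc3 and Bcl2l11, had 106, 95.7 and 109 CPM in XKO 1 to 3, against 136, 141 and 122 CPM in XWT 1 to 3. Its groups did not overlap and it fell (log2 fold change -0.36, standard error 0.0756, adjusted p = 0.00696). The call of Hif1a ended without XKO 3 (adjusted p = 0.0568) and that of Foxo3 without XKO 2 (0.0700). Trp53, the p53 gene, averaged 92.3 ± 4.58 CPM in XKO and 93.9 ± 7.0 CPM in XWT (adjusted p = 0.855).

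Among known p53 target genes other than family members, most of those that passed the test fell in XKO. Of 17 tested, 7 fell and 1 rose, with a median log2 fold change of -0.21, beside 7.99% of all tested genes lower and 6.00% higher. The list was chosen with earlier results of these data known. Across the alternatives 5 to 8 of its genes were called lower, with 5 on leaving out any 1 XKO library. Phlda3, which encodes an inhibitor of AKT, had 7.41, 8.23 and 6.89 CPM in XKO 1 to 3, against 14.7, 18.3 and 12.5 CPM in XWT 1 to 3 (log2 fold change -1.01, adjusted p = 0.000313). Cdkn1a, the gene of the cell cycle inhibitor p21, had 157, 169 and 166 CPM in XKO 1 to 3, against 240, 234 and 215 CPM in XWT 1 to 3 (-0.49, adjusted p = 0.000317). In both genes all XKO libraries were below all XWT libraries. Zmat3 (-0.47, adjusted p = 0.000499) and the stress gene Sesn1 (-0.42, adjusted p = 0.000677) fell as well, and the kinase gene Plk2 rose (0.36, adjusted p = 0.00288). The other falls were those of Eda2r, with 4, 4 and 3 reads in XKO 1 to 3 against 29, 16 and 19 in XWT 1 to 3, Sesn2 (-0.35, adjusted p = 0.0166) and Ei24 (-0.23, adjusted p = 0.0362). Mdm2, the gene of the ligase that degrades p53, had a log2 fold change of 0.19 (adjusted p = 0.0961). The call of Sesn2 ended without XKO 1 (adjusted p = 0.0976), XKO 2 (0.0573), XKO 3 (0.0688) or XWT 2 (0.0554), and that of Ei24 on leaving out any 1 library except XWT 3 (0.0630 to 0.151) and with library size alone (0.0929). Stromal markers fell in the same libraries, as summed above, and their part in these falls was not tested.

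**Figure D4:**
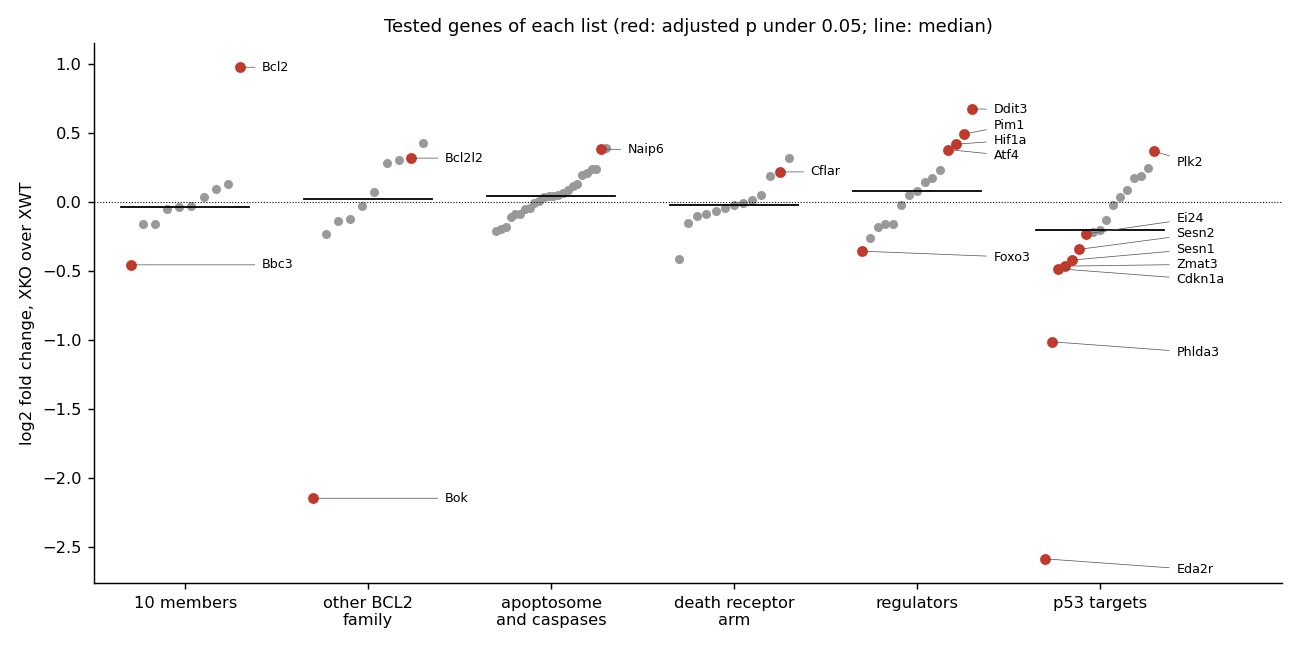
Log2 fold change of XKO over XWT (y axis) of the tested genes in each list (x axis), ordered by value, in red with the symbol where the adjusted p was under 0.05, with a line at the list median. The p53 targets hold 7 falls among 17 genes, and the regulators hold 4 rises and 1 fall.

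Genes with a pattern most like Bcl2 and Bbc3 over the 6 libraries were sought among tested genes of at least 5 CPM, as a description in which groups and libraries are shared. For Bcl2 these were Gsr, the glutathione reductase gene (Pearson r = 0.993, 6 libraries; log2 fold change 0.44), and Ly6a (r = 0.991; 0.56), a member of a family of similar genes, and 274 of 9913 genes had an r above 0.9. For Bbc3 these were Ndufv3 (r = 0.994; -0.22, adjusted p = 0.0805) and Rpl23 (r = 0.993; -0.15, adjusted p = 0.162), neither of which passed the test, with 377 of 9912 genes above 0.9.

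**Figure D5:**
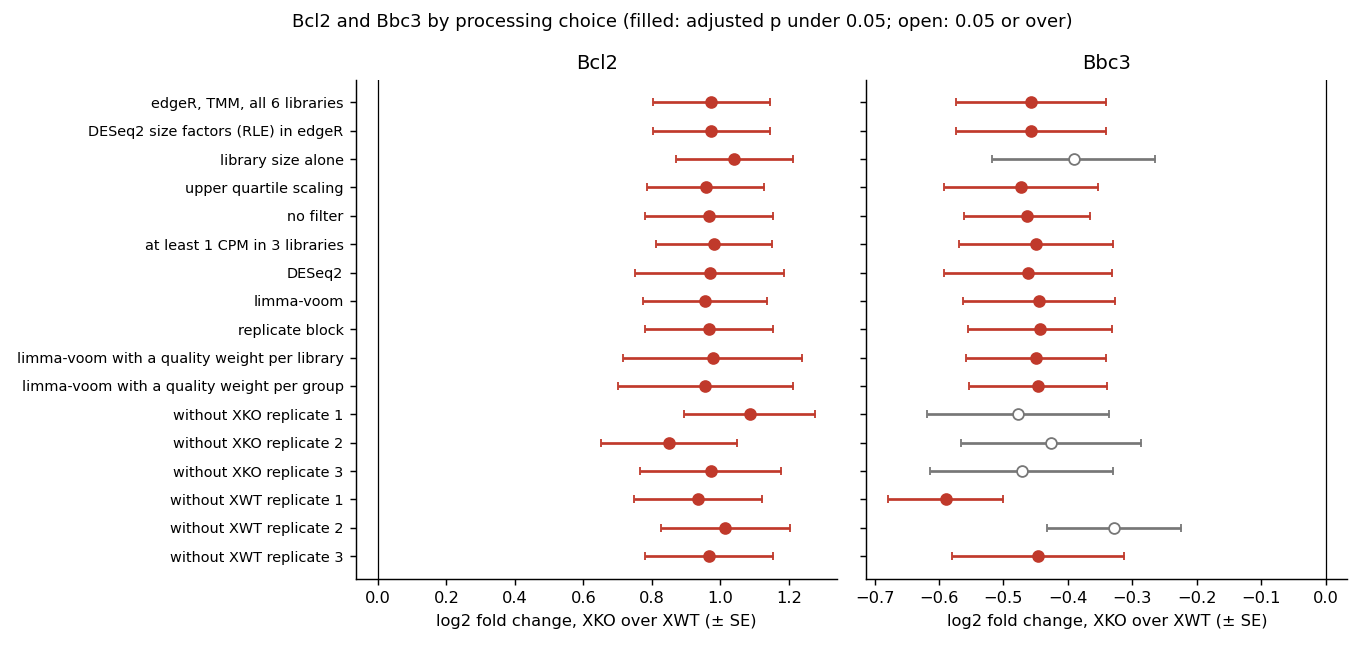
Log2 fold change of XKO over XWT ± SE (x axis) of Bcl2 and Bbc3 under the choice used here and 16 alternatives (y axis), filled where the adjusted p was under 0.05. Bcl2 is filled in every row, between 0.85 and 1.09, and Bbc3 is open in 5 rows, between -0.33 and -0.59 overall.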

How the data were processed

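RNA was taken with Trizol and sequenced from 3 XKO and 3 XWT BMDM samples, with libraries made by a NEBNext Ultra kit from 1 ug of total RNA, per the labels' protocols. The authors deposited 1 gene table. Its read counts per Ensembl gene are whole numbers without scaling, per the file headers. Its FPKM columns, deposited by the authors, are scaled between libraries, with implied totals at 0.998 to 1.01 times the scaled totals computed here, and served only for levels between genes. Group means on a scaled signal were deposited by the authors too and back no result given. The authors' table further holds a log2 fold change, p-value and adjusted p-value of XKO over XWT, per the file headers. The submitters' processing notes name Bowtie 0.12.2, mm8 and mm10, with no role. No source used here states the counter, the annotation release or whether strand was used. GENCODE M21 (GRCm38) held 54409 of the 54532 gene IDs, 98.3% of them at identical coordinates.

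Counts were tested with edgeR 4.0.16 in R 4.3.3 (filterByExpr, TMM scaling, robust quasi-likelihood fit of group, 4 residual degrees of freedom), with Benjamini-Hochberg adjustment over 14333 genes at 0.05. CPM are TMM-scaled, and standard errors are the log2 fold change over the root of F. The biological coefficient of variation was 0.0865. At 28354866 to 30891729 counts per library, counting error is small for Mcl1 and large for Bcl2. Members, lists and tests were chosen with earlier results of these data known. Named genes were all members and tested family genes, and from each other list up to 4 called per direction with the smallest p, or 2 where none was called, plus the 2 genes most like each called member over the libraries. Casp8, Trp53, Mdm2, Eda2r, Sesn2, Ei24, Birc3, Xiap, Naip5, Birc6, Diablo and Fas were named after their values were seen. Alternatives were other scalings and filters, DESeq2 1.42.0, limma-voom 3.58.1, a replicate block, leaving out each library and, added after seeing the data, quality weights per library or per group. The scripts were tested on simulated counts. Of the 10 members 9 had windows in the RefSeq promoter table.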

Additional observations from a re-analysis of the deposited data

How the results depend on the processing

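Across 16 alternatives, Bcl2 stayed called and higher in XKO in all 16 (log2 fold change 0.85 to 1.09, adjusted p up to 0.0218) and Bbc3 stayed lower in all 16 (-0.59 to -0.33) but was not called in 5 of them, named above with their values. Of the members that were not called, 4 changed sign near 0, with the cause not tested. With library size alone the log2 fold change was 0.0342 for Bcl2l1, 0.0309 for Mcl1 and 0.0164 for Bak1, a setting that moved the median of all genes to 0.07. Leaving out 1 library gave -0.0828 to 0.0203 for Bcl2l1, above 0 without XWT 2, and -0.00079 to 0.0601 for Bcl2l11, below 0 without XWT 3. Here and below, apoptosome genes are those of the list of the apoptosome, caspases, their inhibitors and the VDAC channels. Those called higher were in every setting among Birc2, Birc3, Birc6, Naip5, Naip6 and Xiap. Apaf1, Casp9 and Cycs, of the apoptosome itself, were called in no setting. Library size alone gave 0 members lower, and 3 apoptosome, 3 death receptor, 2 other family and 2 p53 target genes higher. Upper quartile scaling gave 0 death receptor and 0 other family genes higher. With no filter 3 apoptosome, 2 death receptor and 2 other family genes were higher and 2 other family genes lower. Genes of the apoptosome list called higher numbered 2 with DESeq2, 2 with limma-voom and 2 with at least 1 CPM in 3 libraries. They numbered 5 with quality weights per library and 4 with weights per group. Both kinds of weights gave 2 other family genes lower, and weights per library 2 p53 targets higher and 2 regulators lower. Leaving out each library gave 806 to 4237 called genes in all (806 without XKO 2, 898 without XKO 3, 915 without XKO 1, 1209 without XWT 2 and 4237 without XWT 3), 0 to 1 members lower, 0 to 5 apoptosome genes higher and 0 to 3 lower, 0 to 1 death receptor genes higher and 0 to 1 lower, 0 to 1 other family genes higher and 1 to 3 lower, 1 to 2 p53 targets higher, and 0 to 3 regulators lower, the highs for all genes, apoptosome genes and other family, death receptor and regulator genes lower being without XWT 3. Each of these fits holds 1 library fewer. Calls numbered 2005 in the main fit with all 6 libraries, below the 4237 without XWT 3 and above those of the other fits that leave out 1 library. The cause of these shifts was not tested.

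The replicate number as a block gave 3 apoptosome genes higher, 2195 called genes in all and no change of call in the 10 members, while the call of Cflar ended (adjusted p = 0.0611). Over all tested genes, same-numbered libraries did not deviate together (correlations of -0.04, -0.04 and -0.05). The labels give no pairing, and with 3 libraries per group these values cannot exclude one.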
